A study of Homo sapiens with 6 samples.

Results

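Chemokines and cytokines are the secreted signals through which B cells call and instruct other immune cells. A set of 10 such genes was followed in freeze-dried B-lymphoblastoid cells: the chemokine genes CCL3, CCL4, CCL5, CCL22 and CXCL10, the interleukin genes IL6 and IL10, and the tumor necrosis factor family genes LTA, LTB and TNF. They were listed by name and looked up among 23284 gene symbols, keeping for LTA, LTB and TNF, which are listed at several loci, the record with the highest mean. The cells were GM12873, an established B-lymphoblastoid line, which is a B-cell line transformed with Epstein-Barr virus and grown without limit. The control samples (Control, n = 3) were cells washed in PBS and taken up in trizol untreated. The lyophilized samples (Lyo, n = 3) were washed in the same way, freeze-dried in PBS with 0.1 M trehalose, a sugar that protects dried cells, and kept for 2 weeks at room temperature before trizol was added. Trehalose, freeze-drying and storage thus cannot be told apart, and lyophilization stands here for all of them. The labels match each control to 1 lyophilized sample, which gives pairs 1, 2 and 3, but do not say whether the pairs were separate cultures or days. The comparison asks whether these genes hold their level relative to other messages in the dried cells. It covers 1 cell line and 1 storage time.

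Transcription of these genes in B cells is driven to a large part by NF-kB, a family of transcription factors that the viral protein LMP1 keeps active in lymphoblastoid cells. Many cytokine messages are short-lived, because proteins that bind AU-rich elements in their 3′ untranslated region recruit the decay machinery.

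Expression was given as FPKM, fragments per kilobase of transcript, scaled to the number of mapped reads, which allows levels to be compared between genes of unequal length. Such a level is relative to the other messages of its sample, so a loss shared by all messages would not show in it. Summed over a sample, FPKM came to 468790 to 508465 in Control and 489828 to 524744 in Lyo, and 10887 to 11041 genes per sample lay above 1. The number of reads behind each value cannot be read from these tables, since they hold FPKM and no counts. All 10 B-cell markers were expressed, with mean FPKM from 23.2 for PAX5 to 2310 for CD74. None of 5 T-cell markers had a mean above 1, and CD3G was listed at 0 in every sample. Of 6 NK-cell markers, NKG7 (5.63) and PRF1 (1.24) lay above 1, and of 7 monocyte and macrophage markers CD68 (3.4) and S100A9 (3.21) did. The erythroid and platelet markers HBB, PPBP and PF4 were listed at 0. In such bulk samples, fewer cells with a message and less of it per cell cannot be told apart.

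The messages of CCL3, CCL4, CCL5, CCL22, LTA, LTB and TNF were abundant in the cells. IL10 lay near the middle of the genes tested by rank, CXCL10 was low and IL6 was near 0. In the controls the order of mean FPKM was CCL3 (389), LTA (314), CCL22 (272), CCL4 (219), LTB (91.7), TNF (69.9), CCL5 (65.8), IL10 (8.76), CXCL10 (1.55) and IL6 (0.015). Neighbours in that order from CCL3 to CCL4 overlapped in their control ranges, as did LTB with TNF and TNF with CCL5. The ranges of CCL4 and LTB, of CCL5 and IL10, of IL10 and CXCL10, and of CXCL10 and IL6 did not overlap. CCL3 ranked 149 among 11134 genes tested by mean control FPKM, LTA 197, CCL22 227 and CCL4 264, while IL10 ranked 6136 and CXCL10 10376. The 10 genes together made up 0.245% to 0.363% of a sample's total FPKM in Control and 0.224% to 0.318% in Lyo.

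**Figure D1:**
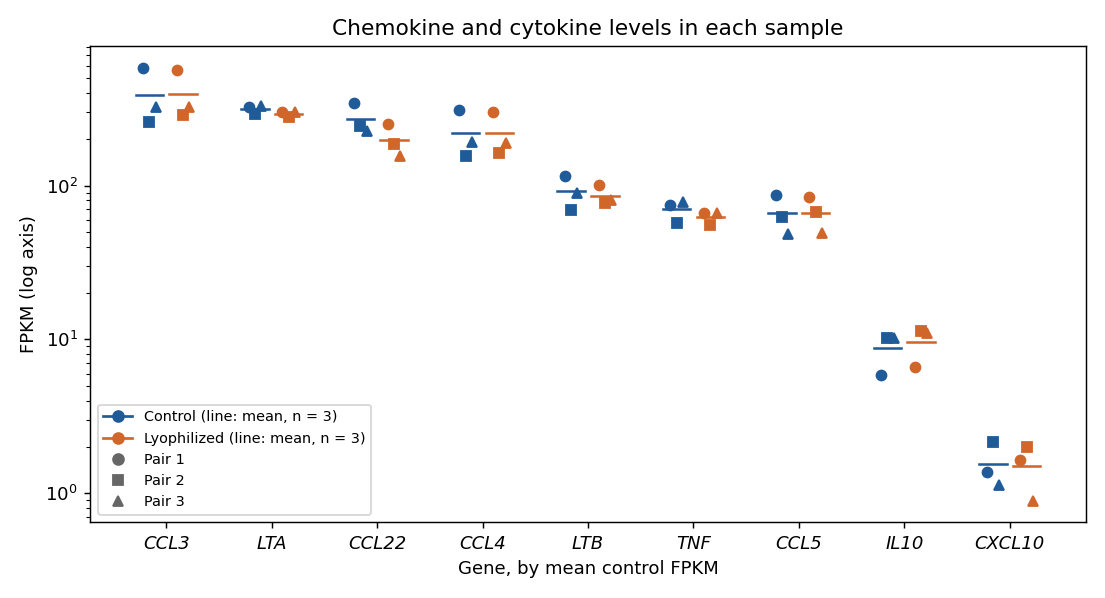
FPKM on a log axis for the 9 genes tested, in 3 control (blue) and 3 lyophilized (orange) samples, with marker shapes for the pairs and lines at the group means. CCL3 runs from 259 to 584 in the controls and from 289 to 560 after lyophilization, and the 2 colours overlap for every gene.

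A gene was tested if its mean FPKM was above 1 in at least 1 group, and 9 of the 10 genes were. IL6, a pyrogenic cytokine and B-cell growth factor, was not, with 0, 0 and 0.045 FPKM in Control 1 to 3 and 0, 0.0406 and 0.0488 in Lyo 1 to 3. None of the 9 differed between the groups in limma without the pairing, at an adjusted p of 0.05, where 0.575% of all 11134 genes were called. None did at an unadjusted p of 0.05 either, which 1573 of all genes passed. With the pair as a block 1 of the 9 was called, CCL22, which was lower after lyophilization, where 14.9% of all genes were called lower and 15.9% higher. Without pair 2 the blocked fit called 4 of the 9, adding LTA, LTB and TNF, all lower. How many of all genes that smaller fit called was not counted, so this rise cannot be set against them. The median log2 fold change of the 9 genes was -0.05, beside 0.04 over all genes tested.

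CCL22 encodes the chemokine MDC, which attracts T cells that carry the receptor CCR4. It was the 1 gene of the set called lower after lyophilization in the blocked fit. It lies at chr16:57392695-57400102 (hg19, plus strand) in 3 exons. Its FPKM was 346, 245 and 226 in Control 1 to 3 and 250, 187 and 156 in Lyo 1 to 3. Each lyophilized sample lay below its own control, but lyophilized sample 1 lay above controls 2 and 3, so the groups overlapped. The level was 0.724, 0.764 and 0.688 times that of the control in pairs 1, 2 and 3. The group means were 272 ± 64.1 and 198 ± 48.1 FPKM (SD, n = 3 each). The log2 fold change on the log2(FPKM + 0.1) scale was -0.46 with an SE of 0.22 without the block (adjusted p = 0.389, limma). With the block its SE was 0.05 and its adjusted p 0.000389. Leaving out 1 pair at a time gave -0.50 to -0.43 in the blocked fit, called each time. The adjusted p then fell below that with all pairs, to 1.4e-09 without pair 1 (limma). Such small fits take most of their spread from other genes, so their p-values do not show how firm the call is.

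The fold changes of all genes moved with base composition. In the quartile of genes with the lowest transcript GC content (30.7% to 41.7%) the median log2 fold change was 0.27, and in that with the highest (56.6% to 76.0%) it was -0.21. CCL22 has 52.8% GC, and the quartile it belongs to had a median of -0.06. After a loess correction for GC content in each sample, the blocked log2 fold change of CCL22 was -0.35 with an SE of 0.04 (adjusted p = 0.00236, limma), where 6.41% of genes were called lower. CCL22 took 0.447 to 0.649 times the level of CCL3 in the lyophilized samples and 0.592 to 0.946 times in the controls, and this ratio was lower in the lyophilized sample of each pair.

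Of the other CC chemokines, CCL3, CCL4 and CCL5, none was called without the pairing or with the pair as a block, and CCL3 and CCL5 were called higher after GC correction. CCL3 and CCL4 encode MIP-1α and MIP-1β, which attract monocytes and T cells, and lie 13713 bases apart on chromosome 17 (CCL3 at chr17:34415603-34417506, minus strand, and CCL4 at chr17:34431220-34433014, plus strand, hg19). CCL3 had 584, 259 and 325 FPKM in Control 1 to 3 and 560, 289 and 326 FPKM in Lyo 1 to 3. Both samples of pair 1 were high and both of pair 2 low, while the means of the groups, 389 ± 172 and 391 ± 147 (SD, n = 3), nearly coincided. For CCL4 the controls had 309, 156 and 193 FPKM and their lyophilized partners 303, 163 and 188 FPKM, in the same order. The ratio of CCL3 to CCL4 stayed between 1.67 and 1.89 in the 6 samples. The blocked log2 fold changes were 0.03 with an SE of 0.05 for CCL3 (adjusted p = 0.624, limma) and 0.00 with an SE of 0.04 for CCL4 (adjusted p = 0.984).

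CCL3 and CCL4 have near-identical copies, and only reads with 1 position in the genome were counted. Of the 75-base stretches of the CCL3 transcript, the length of a read, 5.95% occur elsewhere in the genome, and of CCL4 5.46%, but of CCL3L1 68.0% and of CCL4L1 82.2%. The 4 records of CCL3L1 and CCL3L3 summed to 98.98, 34.8 and 53.7 FPKM in Control 1 to 3 and to 98.7, 37.2 and 53.5 in Lyo 1 to 3. Those of CCL4L1, 2 in number, summed to 173, 75.0 and 116 FPKM before and 166, 77.9 and 124 FPKM after lyophilization. The copies were thus high in pair 1 as well, and how reads were split between a gene and its copies is uncertain.

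CCL5, which encodes RANTES, a chemokine that attracts T cells, lies 208225 bases from CCL3 (chr17:34198496-34207377, minus strand). It had 87.0, 62.4 and 48.2 FPKM in Control 1 to 3 and 83.8, 67.3 and 49.2 in Lyo 1 to 3, so that the pairs kept 1 order in both groups. Its blocked log2 fold change was 0.03 with an SE of 0.05 (adjusted p = 0.703, limma). Of its 75-base stretches, 16.2% occur elsewhere. CXCL10, the interferon-induced ligand of CXCR3 (chr4:76942269-76944689, minus strand), stood just above the filter. Control 1 to 3 had 1.37, 2.15 and 1.13 FPKM and Lyo 1 to 3 had 1.64, 2.00 and 0.897, highest in pair 2 and lowest in pair 3 in both groups. Its blocked log2 fold change was -0.05 with an SE of 0.16 (adjusted p = 0.818, limma), the largest SE of the 9 genes.

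LTA, TNF and LTB are neighbours in the major histocompatibility complex on chromosome 6 (LTA at chr6:31539876-31542098 and TNF at chr6:31543350-31546112 on the plus strand, LTB at chr6:31548336-31550202 on the minus strand), with 1251 bases between LTA and TNF and 2223 between TNF and LTB. Lymphotoxin α, from LTA, is secreted alone or held at the membrane by lymphotoxin β, from LTB, and TNF is the inflammatory cytokine of the family. Records of these genes on alternate haplotypes were 0 in every sample.

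LTA had 322, 291 and 329 FPKM in Control 1 to 3 and 299, 277 and 300 in Lyo 1 to 3. TNF had 74.4, 57.4 and 77.9 FPKM before and 66.0, 55.5 and 65.9 FPKM after lyophilization. In each of the 3 pairs both genes were lower after lyophilization, as CCL22 was, and their groups overlapped. A lower level in all 3 pairs was found in 28.8% of all genes tested. The blocked log2 fold changes were -0.11 with an SE of 0.04 for LTA (adjusted p = 0.075, limma) and -0.15 with an SE of 0.06 for TNF (adjusted p = 0.0604), short of the threshold. After GC correction they were 0.06 and -0.02, so that LTA turned in direction. LTA was 4.23 to 5.07 times as abundant as TNF over the 6 samples.

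LTB had 115, 69.6 and 90.0 FPKM in Control 1 to 3 and 101, 76.7 and 80.0 in Lyo 1 to 3. It was lower after lyophilization in pairs 1 and 3 and higher in pair 2. Its transcript has 64.5% GC, the highest of the 10 genes. The blocked log2 fold change of -0.08 (SE 0.07, adjusted p = 0.408, limma) became 0.24 with an SE of 0.04 after GC correction (adjusted p = 0.0107). CCL3 (0.14, adjusted p = 0.0343) and CCL5 (0.16, adjusted p = 0.0373) also passed as higher in that fit, 3 of 9 genes beside 8.8% of all genes. The direction of LTB thus depends on this correction, and none of the 3 was called without it.

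IL10, the anti-inflammatory interleukin of regulatory B cells (chr1:206940948-206945839, minus strand), had 5.90, 10.2 and 10.2 FPKM in Control 1 to 3 and 6.63, 11.3 and 11.1 in Lyo 1 to 3. It was the 1 gene of the 9 with a higher level after lyophilization in each pair, which 33.4% of all genes had. Its blocked log2 fold change was 0.14 with an SE of 0.08 (adjusted p = 0.184, limma).

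**Figure D2:**
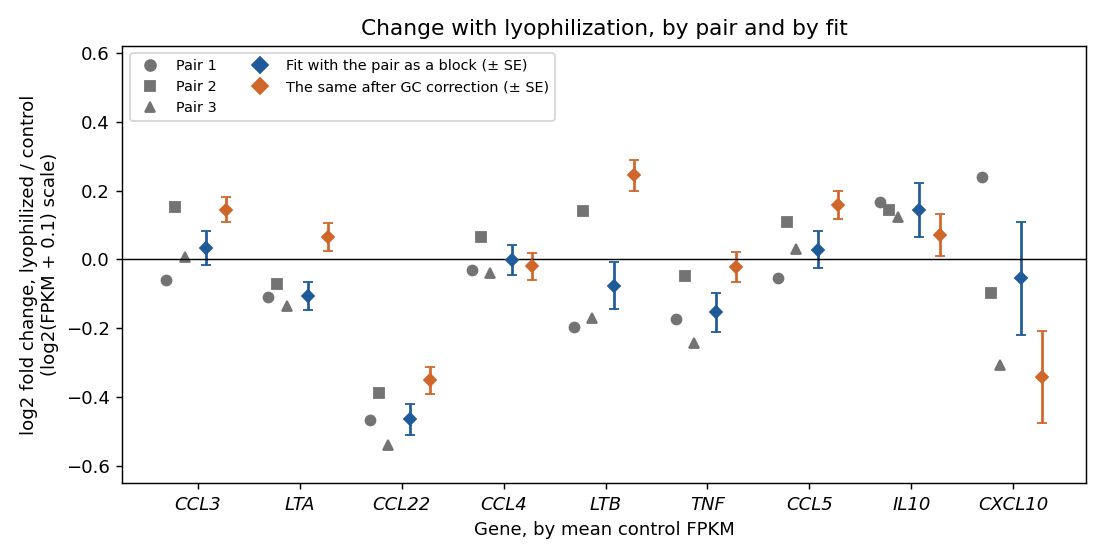
Log2 fold change of lyophilized over control on the log2(FPKM + 0.1) scale for the 9 genes, by pair (grey) and in the blocked limma fit before (blue) and after (orange) GC correction, with bars for the SE. CCL22 lies between -0.54 and -0.39 in the 3 pairs, and LTB moves from -0.08 to 0.24 with the correction.

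AU-rich elements differ widely among the 10 messages. The pentamer ATTTA, counted on the transcript strand with overlaps and on canonical transcripts, occurs 9 times in the 3′ untranslated region of TNF, 8 times in IL10, 6 in IL6, 4 in CCL3, 3 in LTA, 2 in CCL4 and 1 in CXCL10, and not in those of CCL5, CCL22 and LTB. The nonamer TTATTTATT, which holds the pentamer, occurs 5 times in TNF and 1 time in LTA. The first nonamer of each is shown, in capitals with 10 bases on either side, because LTA and TNF are the messages of the set that hold this longer motif (hg19, 3′ untranslated region):
LTA (chr6:31541843-31541871, plus strand): aaaaattaaaTTATTTATTtatggaggat
TNF (chr6:31545767-31545795, plus strand): gcacttgtgaTTATTTATTatttatttat
The FPKM of these messages after lyophilization was 0.910 to 0.952 (LTA) and 0.845 to 0.967 (TNF) times that of the control in the 3 pairs. Of the genes with neither motif, CCL22 stood at 0.688 to 0.764 times its control level, CCL5 at 0.964 to 1.08 times and LTB at 0.872 to 1.10 times. With the pentamer alone, IL10 stood at 1.09 to 1.12 times its control level and CCL3 at 0.96 to 1.11 times. CCL4 stood at 0.97 to 1.05 times and CXCL10 at 0.79 to 1.19 times, and IL6 was not tested. Of the genes tested with a 3′ untranslated region, 9.09% hold the nonamer. Their median log2 fold change was 0.12 and their median GC content 42.4%, beside 0.04 and 48.8% in the genes without it. Whether GC content has a part in that difference was not tested.

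Most of the genes differed in level between the pairs. In a limma fit with condition and pair, 8 of the 9 genes differed between the pairs, all but LTA (adjusted p = 0.0644), beside 45.2% of all genes. Shares over all genes, here and below, were not matched to the set in abundance. LTA was called too, which makes 9 of 9, with upper-quartile (adjusted p = 0.0306) and with median-of-ratios scaling (0.0342). The fit without the filter on low values called 5, leaving CXCL10 (adjusted p = 0.0793), LTB (0.058) and TNF (0.0509) short of the threshold. How many of all genes were called with either scaling or without the filter was not counted. The adjusted p was 1.45e-05 for CCL3, 1.85e-05 for CCL4, 7.77e-05 for CCL5, 9.32e-05 for CCL22 and 0.000333 for IL10. It was 0.00163 for LTB, 0.00473 for TNF and 0.0097 for CXCL10, and CXCL10 alone was lost without lyophilized sample 3 (0.0652).

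Pair 1 stood apart for 6 of the 9 genes. Both of its samples lay above the other 4 for CCL3, CCL4, CCL5, CCL22 and LTB, 5 of 9 genes beside 13.7% of all genes. Its mean was 1.91 times that of pairs 2 and 3 for CCL3, 1.75 for CCL4, 1.504 for CCL5, 1.46 for CCL22 and 1.37 for LTB. For IL10 both samples of pair 1 lay below the other 4, at 0.587 times their mean, as for 26.0% of all genes. LTA and TNF differed little, with pair 1 at 1.04 and 1.09 times the mean of pairs 2 and 3. Because every count of a pair rests on 2 samples of that pair, and because the labels name no culture or day, what sets pair 1 apart was not tested.

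**Figure D3:**
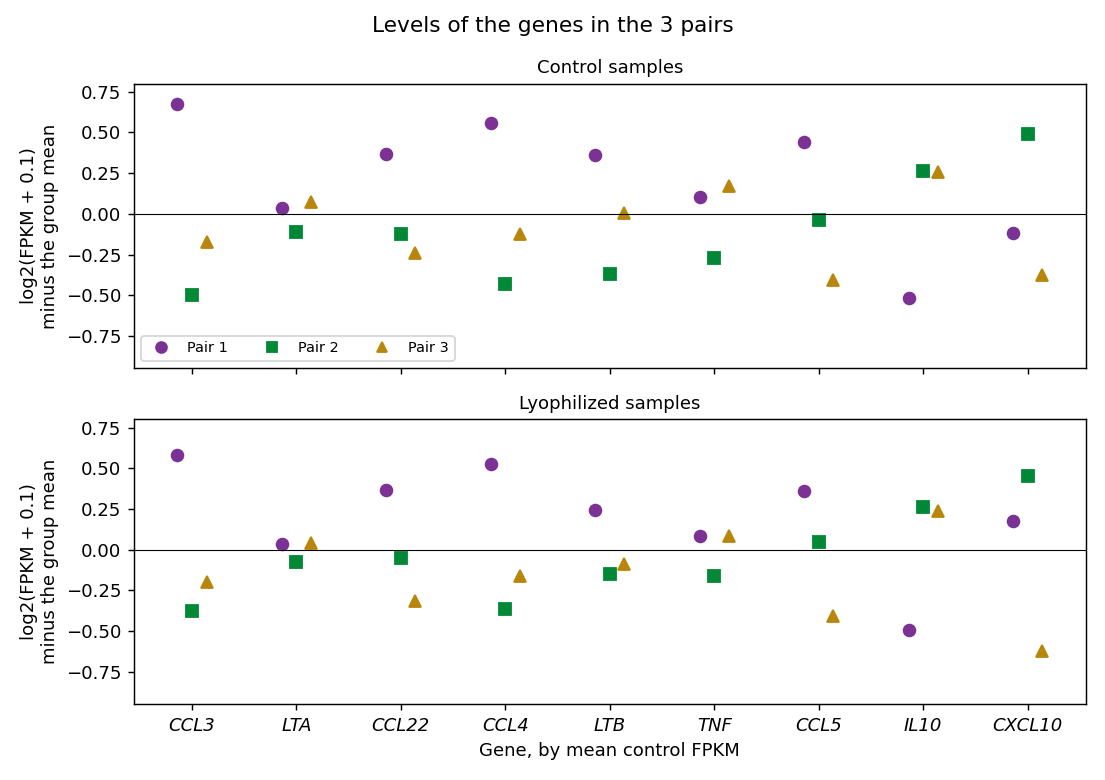
Level of the 9 genes in each sample as log2(FPKM + 0.1) minus the mean of its group, for controls (top) and lyophilized samples (bottom), with colour and shape for the pair. Pair 1 is the highest for CCL3, CCL4, CCL5, CCL22 and LTB and the lowest for IL10 in both panels.

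Of the sum of squares of log2(FPKM + 0.1) over the 6 samples, the median share between pairs was 92.2% over the 9 genes and 60.5% over all genes tested. The share between control and lyophilized samples was 2.38% over the 9 and 22.4% over all genes. These shares are not sizes of effect: the pairs take more terms of the fit than the condition, so noise alone would give them more. CCL4 had the largest share between pairs of the 9, 99.7%, and CCL22 the smallest, 57.3%, with 41.9% between the conditions. LTA had 38.6% and TNF 18.9% between the conditions, each a share of the gene's own spread.

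**Figure D4:**
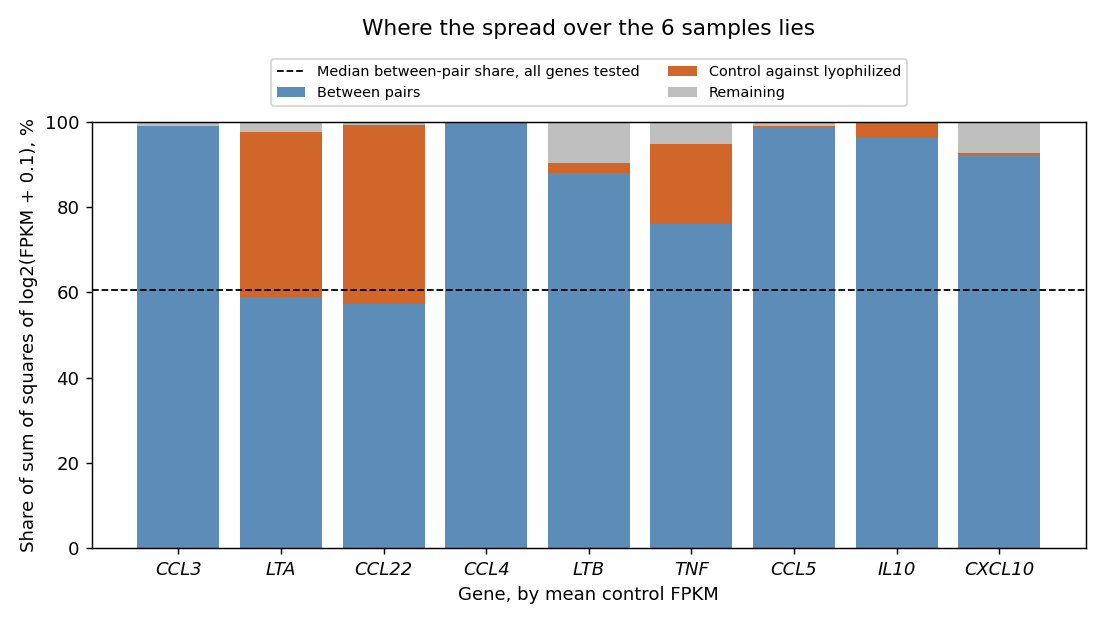
Share of the sum of squares of log2(FPKM + 0.1) over the 6 samples that lies between pairs (blue), between conditions (orange) and in the remainder (grey), for the 9 genes. CCL22 and LTA hold the large orange shares, 41.9% and 38.6%, and the dashed line is the median between-pair share of all genes, 60.5%. Each share is taken of the gene's own spread, and the blocked log2 fold changes were -0.46 for CCL22 and -0.11 for LTA.

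The promoters of CCL3, CCL22, LTB and IL10 are shown because these genes set pair 1 apart, the first 3 with high and IL10 with low levels. The RefSeq table (GRCh38.p14) held 8 of the 10 genes, without CCL4 and CCL5. Each window has 250 bases before and 50 after the start, read 5′ to 3′ on the gene's strand, and capitals mark matches to the NF-kB consensus on either strand:
CCL3 (chr17:36090094-36090393, minus strand): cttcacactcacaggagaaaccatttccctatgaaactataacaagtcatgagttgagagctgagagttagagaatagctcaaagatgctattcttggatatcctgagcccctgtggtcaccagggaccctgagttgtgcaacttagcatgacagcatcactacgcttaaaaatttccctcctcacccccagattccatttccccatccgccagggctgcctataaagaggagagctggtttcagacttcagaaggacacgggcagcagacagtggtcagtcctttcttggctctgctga
CCL22 (chr16:57358533-57358832, plus strand): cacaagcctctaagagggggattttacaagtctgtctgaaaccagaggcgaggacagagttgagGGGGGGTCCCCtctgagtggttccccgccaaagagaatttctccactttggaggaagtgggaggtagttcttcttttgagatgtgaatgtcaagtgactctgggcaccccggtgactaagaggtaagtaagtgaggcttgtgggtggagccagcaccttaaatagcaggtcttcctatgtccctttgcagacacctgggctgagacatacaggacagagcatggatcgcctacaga
LTB (chr6:31582375-31582674, minus strand): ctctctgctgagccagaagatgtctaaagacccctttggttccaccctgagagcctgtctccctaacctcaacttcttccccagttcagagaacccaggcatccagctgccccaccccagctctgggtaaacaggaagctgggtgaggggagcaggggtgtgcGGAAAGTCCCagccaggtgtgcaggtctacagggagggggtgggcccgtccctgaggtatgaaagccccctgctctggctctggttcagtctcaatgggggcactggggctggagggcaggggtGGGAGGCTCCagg
IL10 (chr1:206772445-206772744, minus strand): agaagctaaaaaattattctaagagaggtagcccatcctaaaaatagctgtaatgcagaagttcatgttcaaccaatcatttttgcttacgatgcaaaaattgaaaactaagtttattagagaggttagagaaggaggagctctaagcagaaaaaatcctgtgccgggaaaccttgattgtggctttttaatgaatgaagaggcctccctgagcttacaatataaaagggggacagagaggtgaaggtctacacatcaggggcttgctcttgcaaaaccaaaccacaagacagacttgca
The window of CCL22 has 2 overlapping matches, which begin 186 and 185 bases upstream of the start, and that of LTB has 1 match 87 bases upstream and 1 at 37 bases downstream. The windows of CCL3 and IL10 have none, nor has that of TNF. Matches also stand in the windows of LTA (2, overlapping), CXCL10 (2) and IL6 (1). CXCL10 has, in addition, 1 match to GAAANNGAAA, the core of the interferon-stimulated response element. Of 35116 promoters of the same length, 11.3% hold the NF-kB consensus and 3.57% the interferon element. A match of this kind describes the letters of the window and not a bound site.

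For the 3 most abundant messages, the genes outside the set with the most similar pattern were named by the highest Pearson r of log2(FPKM + 0.1). This is a description over 6 samples that share 3 pairs, and the highest r among all genes tested lie near 1 by selection. For CCL3 the genes named were IRAK2 (r = 0.9995, mean 2.96 FPKM), GABARAP (0.9986, mean 130 FPKM) and CD70 (0.9977, mean 326.5 FPKM). For LTA they were SHISA5 (0.9955, mean 49.65 FPKM) and MRC2 (0.9933, mean 1.57 FPKM, near the filter). For CCL22 they were KHNYN (0.9982), SSH1 (0.9961) and RXRB (0.9958).

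Receptors, other ligands and regulators of these genes were counted in the same fits. Of 53 genes tested from 4 lists, limma without the pairing called 0, with 3 at an unadjusted p of 0.05. The blocked fit called 12 lower and 4 higher, beside 14.9% and 15.9% of all genes, and after GC correction 7 lower and 3 higher, beside 6.41% and 8.8%. Between the pairs 41 of the 53 differed, beside 45.2% of all genes. The blocked count ran from 10 to 23 with 1 pair left out and was 6 without the filter on low values. How many of all genes were called under those settings was not counted.

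Of 13 receptors, 9 were tested, of which the blocked fit called 3 lower and 1 higher (14.9% and 15.9% of all genes) and the fit with GC correction 0 (6.41% and 8.8%). TNFRSF1B, a TNF receptor, had 42.8 ± 7.11 FPKM in the controls and 34.2 ± 4.38 after lyophilization (SD, n = 3), a blocked log2 fold change of -0.31 (adjusted p = 0.00456, limma). TNFRSF14, a receptor for lymphotoxin α, was the most abundant with 74.4 ± 33.3 and 62.5 ± 21.5 FPKM (blocked log2 fold change -0.22, adjusted p = 0.0291), and its mean in pair 1 was 1.90 times that of pairs 2 and 3. IL6ST, the signalling chain of the IL6 receptor, was higher, at 2.92 ± 0.47 and 3.87 ± 1.008 FPKM (0.37, adjusted p = 0.0476). All 9 differed between the pairs, beside 45.2% of all genes. Below the filter, and named after their values were seen, were CCR4, the receptor of CCL22, and LTBR, that of membrane lymphotoxin. Their highest FPKM in any sample was 0.475 for CCR4 and 0.346 for LTBR.

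Of 41 other secreted factors, 40 were found and 21 tested, of which the blocked fit called 2 lower and 1 higher, beside 14.9% and 15.9% of all genes. The fit with GC correction called 2 lower and 1 higher, beside 6.41% and 8.8% of all genes. Between the pairs 17 of the 21 differed, beside 45.2% of all genes. TGFB1, the anti-inflammatory growth factor, had 95.9 ± 17.3 FPKM in the controls and 67.9 ± 10.4 after lyophilization, with a blocked log2 fold change of -0.49 (adjusted p = 0.000403, limma) that was -0.19 after GC correction (adjusted p = 0.0206). CSF1, the macrophage growth factor, had 16.7 ± 4.65 and 12.1 ± 2.73 FPKM (-0.44, adjusted p = 0.00304, and -0.23 after GC correction, adjusted p = 0.0279). EBI3, a subunit of IL27 and the most abundant of the list, had 299 ± 134 and 275 ± 122 FPKM (-0.12, adjusted p = 0.052).

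The 12 proteins that bind AU-rich elements or degrade cytokine messages were all tested. The blocked fit called 6 of them lower and 1 higher, beside 14.9% and 15.9% of all genes, with a median log2 fold change of -0.24, beside 0.04 over all genes tested. The fit with GC correction called 5 lower and 0 higher, beside 6.41% and 8.8% of all genes. ZFP36L2, of the tristetraprolin family, had 15.5 ± 2.65 FPKM in the controls and 11.7 ± 1.497 after lyophilization (blocked log2 fold change -0.40, adjusted p = 0.00524, limma), and was not called after GC correction (-0.27, adjusted p = 0.0525). ZC3H12D, a relative of the ribonuclease regnase-1, had 8.06 ± 1.16 and 6.31 ± 0.69 FPKM (-0.34, adjusted p = 0.0164) and was not called after GC correction either (-0.19, adjusted p = 0.104). HNRNPD (AUF1), the most abundant of the list, had 145 ± 32.5 and 131 ± 24.1 FPKM (-0.14, adjusted p = 0.0592) and passed after GC correction (-0.31, adjusted p = 0.0026).

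Of 13 intracellular inhibitors of NF-kB and cytokine signalling, 11 were tested, and the blocked fit called 1 lower and 1 higher, beside 14.9% and 15.9% of all genes. With GC correction 0 were called lower and 2 higher, beside 6.41% and 8.8% of all genes. The gene called lower with the block was SOCS1, named after its values were seen (log2 fold change -0.31, adjusted p = 0.0116, limma). After GC correction SOCS1 stood at 0.03 (adjusted p = 0.802). CYLD, a deubiquitinase, was higher, at 20.2 ± 1.99 FPKM in the controls and 24.1 ± 1.89 after lyophilization (blocked log2 fold change 0.26, adjusted p = 0.0371, limma), but at 0.03 after GC correction (adjusted p = 0.763). PIAS1 had 15.2 ± 0.78 and 17.6 ± 2.04 FPKM (0.21, adjusted p = 0.0652). TNIP1, the most abundant of the list, had 193 ± 27.3 and 179 ± 20.6 FPKM (-0.11, adjusted p = 0.0999), and differed between the pairs (adjusted p = 0.003).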

How the data were processed

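Poly(A)-selected RNA of 3 control and 3 lyophilized samples had been sequenced with 75-base single-end reads. Per the study's methods, the authors used TopHat 2.0.7 and hg19 for mapping, kept reads with 1 position and deposited 1 table of FPKM values per sample, computed with Cufflinks (version and annotation not given in the sources used here). The deposited tables hold no counts, so the depth behind each value cannot be read from them, and no interval or floor was computed. Read totals per sample, which the study gives, were not used here. Control 1 had the fewest reads by those totals. The control had fewer reads than its lyophilized partner in pairs 1 and 2, and more in pair 3. Records were joined by symbol and locus. Starts, which count from 0, were raised by 1.

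Members and lists were chosen with earlier results of these data known. After small RNAs were removed, genes whose mean FPKM exceeded 1 in either group were tested with limma 3.58.1 (R 4.3.3, mean-variance trend, two-sided) on log2(FPKM + 0.1), which understates changes of low genes, with Benjamini-Hochberg adjustment over 11134 genes. The first fit held the condition alone, as in the study. Further fits added the pair as a block, and a loess correction for GC content (span 0.3, degree 2; 10866 genes). The labels pair the samples, and the deviations from the group means over genes correlated at 0.716, 0.603 and 0.476 within pairs 1 to 3. Without the block, p-values rest on the spread between samples of a group. In the blocked fits and the pair test they rest on the spread left after condition and pair. With a pair left out of the block, or a sample left out of the pair test, that spread comes mostly from other genes. The p-values of such fits can fall as data are removed. Either spread may be technical. GC content, 3′ untranslated regions and exons come from canonical GENCODE transcripts on GRCh37, promoters from RefSeq.

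Named were the 10 members, of each list the genes past the threshold without the block or else the 2 with the smallest p, the most abundant gene of each list, and the 3 genes most like each of the 3 most abundant members. Some results under this rule are not reported here. TRAC and CCL4L2 were not analysed here. Fits were tested on simulated data. Alternatives covered pseudocounts of 1 and 0.01, no filter, upper-quartile and median-of-ratios scaling, the block, the GC correction and each sample or pair left out. Python 3.11.15 was used.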

Additional observations from a re-analysis of the deposited data

How the results depend on the processing

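Without the block, 0 of the 9 genes tested were called under either pseudocount, either scaling, no filter, and with any 1 sample left out (0 to 0). With the replicate block 1 was called on FPKM as deposited, 1 with upper-quartile scaling, 1 with median-of-ratios scaling and 1 without the filter, 4 with the GC correction, and 1 to 4 with 1 pair left out. On FPKM as deposited the block changed the call of CCL22 and of no other of the 9. The 3 fits with scaling or no filter under the block, and the pair test with a sample left out, were chosen after seeing the data. The share of all genes called was not counted for fits with other pseudocounts or scalings, no filter, or samples or pairs left out. The count of genes differing between pairs was 5 without the filter, where more genes are tested, 9 with either scaling, and 7 to 9 with a sample left out. Of the 53 genes of the 4 lists, 0 were called without the block (0 to 0 with a sample left out), 16 with the replicate block, 10 with GC correction, 16 with upper-quartile scaling, 18 with median-of-ratios scaling, 6 without the filter and 12, 23 and 10 without pairs 1, 2 and 3. The direction turned for LTA (0.065) and LTB (0.24) with the block and GC correction. With 1 sample left out, log2 fold changes ran from -0.26 to 0.37 for CCL3, -0.26 to 0.28 for CCL4, -0.18 to 0.25 for CCL5, -0.28 to 0.26 for CXCL10, -0.12 to 0.39 for IL10 and -0.26 to 0.11 for LTB, each including a change of sign. With the block the sign also turned for CCL3 (-0.027) and CCL5 (-0.012) without pair 2, for CCL4 (0.013 and 0.017) without pairs 1 and 3, and for CXCL10 (0.071) without pair 3. CCL22 was lower under every alternative run, from -0.65 to -0.28. The scalings moved the median of all genes by less than 0.1. The causes of these changes were not tested. The read counts behind low genes such as CXCL10 and IL6 cannot be read from FPKM tables, which limits what can be said of their precision.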

Other observations

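Some other genes of the NF-kB and cytokine pathways were also high in pair 1, and some were low. The genes named here were chosen after their values were seen. CCL19, a ligand of CCR7, had 4.41, 0.883 and 0.918 FPKM in Control 1 to 3 and 3.69, 0.992 and 0.696 in Lyo 1 to 3, with pair 1 at 4.64 times the mean of pairs 2 and 3. IL32 had 393, 208 and 195 FPKM in the controls and 391, 235 and 195 after lyophilization (1.88 times). SOCS1 and SOCS3, the feedback inhibitors of cytokine receptors, stood at 2.14 and 2.40 times, and the NF-kB inhibitors NFKBIA and NFKBIE at 1.63 and 1.92 times. Not all ligands had this order: IL12A was lower in pair 1, at 0.498 times, and CCL17, the other ligand of CCR4, was highest in pair 2, with 25.0 and 24.9 FPKM in its control and lyophilized sample beside 13.1 to 16.2 FPKM in the other 4. CCR1, TNFSF13B and CXCR3 also had a lower mean in pair 1, at 0.446, 0.653 and 0.682 times. How many genes of the 4 lists lay above or below in pair 1 was not counted.

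ZFP36 (tristetraprolin), which destabilizes TNF messages, had 88.6, 39.9 and 61.9 FPKM in Control 1 to 3 and 54.5, 25.6 and 39.7 in Lyo 1 to 3. Its blocked log2 fold change was -0.66 (adjusted p = 0.00021, limma) and after GC correction -0.48 (adjusted p = 0.00176). Without the block none of the genes of the list passed. ZFP36L1 had 58.6, 36.1 and 45.5 FPKM in the controls and 41.0, 25.3 and 34.3 after lyophilization (-0.48, adjusted p = 0.000811).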
